A study of Homo sapiens with 9 samples.

Results

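HMGB1, HMGB2, HMGB3 and HMGN1 to HMGN5 encode high mobility group proteins, small and abundant non-histone proteins of chromatin. The 8 genes were taken by name, matched to the Ensembl identifiers of the deposited table, and are 8 of the 57338 genes listed there. Their transcript levels were compared in libraries labelled HEK293T, a human embryonic kidney line, transfected with a pcDNA3.1 plasmid for EGFP alone (empty vector, Emp) or for EGFP joined to human protamine 1 (hPRM1) or human protamine 2 (hPRM2). Live cells with high EGFP signal were sorted on day 3, so by label all 3 groups received an EGFP plasmid, and each group had 3 libraries, numbered replicates 1 to 3. RNA was sequenced from the 3′ ends of polyadenylated transcripts, and the values are reads per kilobase of gene, scaled to the total reads of the library (RPKM). The labels do not say that replicates came from separate cultures, so p-values measure only the spread between these libraries, and RNA of pooled cells cannot tell fewer cells of a type from less RNA per cell.

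HMGB proteins carry paired HMG boxes that bend DNA and bind it with little regard for its sequence, and HMGB1 also signals outside the cell when it is released. HMGN proteins bind nucleosomes directly through a conserved nucleosome-binding domain and compete with linker histone H1 for chromatin. Both families are common in proliferating and embryonic cells, and their levels usually fall as cells differentiate. Protamines are the small arginine-rich proteins that replace histones in sperm, which is the reason for asking how genes of other chromatin proteins behave when protamines are made in a somatic cell.

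The HMGN family is related by the coding part of its nucleosome-binding domain. The 33 bases of the HMGN2 coding sequence that were best kept in the other 4 genes lie there, and are shown to compare the family. Whether reads of these genes were confused was not tested. Capitals mark bases that differ from HMGN2, and the sequences are exonic, from GENCODE 29 on GRCh38.
HMGN2: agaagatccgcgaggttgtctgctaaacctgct
HMGN1: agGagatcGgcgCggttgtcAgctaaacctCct
HMGN4: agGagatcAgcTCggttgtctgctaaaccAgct
HMGN3: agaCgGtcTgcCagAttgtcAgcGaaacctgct
HMGN5: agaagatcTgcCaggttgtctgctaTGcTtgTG
HMGN1 and HMGN4 each differed from HMGN2 at 5 of these 33 bases, and HMGN3 and HMGN5 at 7. Over the whole coding sequence HMGN4 was identical to HMGN2 at 236 of 273 aligned columns (86.4%), the closest pair of the family, whereas HMGN1 and HMGN2 shared 53.1%. In the HMGB family, HMGB1 and HMGB2 shared 75.3% of aligned columns, HMGB2 and HMGB3 69.9%, and HMGB1 and HMGB3 69.3%.

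In GRCh38 (GENCODE 29), HMGB1 (ENSG00000189403) lies on chromosome 13 from 30456704 to 30617597 on the minus strand and HMGB2 (ENSG00000164104) on chromosome 4 from 173331695 to 173335125, also on the minus strand. HMGB3 (ENSG00000029993) lies on chromosome X from 150980509 to 150990775 on the plus strand. HMGN1 (ENSG00000205581) is on chromosome 21 from 39342315 to 39349647 (minus), and HMGN2 (ENSG00000198830) on chromosome 1 from 26472450 to 26475972 (plus). HMGN3 (ENSG00000118418) and HMGN4 (ENSG00000182952) are both on chromosome 6, from 79201245 to 79234738 (minus) and from 26538405 to 26546254 (plus). HMGN5 (ENSG00000198157) is on chromosome X from 81113701 to 81201942 (minus). HMGN3 overlaps the antisense gene HMGN3-AS1, HMGB1 overlaps AL353648.1 and PTPN2P2 on the opposite strand and MFAP1P1 and RBM22P2 on its own, and HMGN1 overlaps RF00019 on the opposite strand. Whether the authors counted by strand is not given in the sources used here.

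The protamine genes were read first as a check of the labels. In hPRM2 replicates 1, 2 and 3, PRM2 stood at 71224, 60050 and 36130 RPKM, and it was listed at 0 in the other 6 libraries. PRM1 was listed at 0 in all 9 libraries, the 3 labelled hPRM1 included, where 0 allows up to 4.09 RPKM (3 reads, counting error only). The libraries labelled hPRM1 also carry library names of another number series than the other 6, so library series and condition cannot be told apart. Of 8 marker genes of HEK293T cells, 7 were above 0 in every empty vector library, with a summed level of 862 to 1018 RPKM. In the libraries labelled hPRM1 the same sum was 1.41 to 4.51 RPKM, with PAX2, LIN28B, NEFM and GAL at 0 in all 3, whereas hPRM2 libraries had 667 to 2072 RPKM. The 8 erythroid markers summed to 2.06e+06 to 2.27e+06 RPKM in the libraries labelled hPRM1, against 3.09 to 18.2 in the empty vector and 2.16 to 16.3 in hPRM2. The 8 leukocyte markers summed to 6148 to 7119 RPKM there, and 4 platelet markers to 312 to 544, against at most 2.54 and 13.5 RPKM in the other 6 libraries. The 8 proliferation markers summed to 7.25 to 8.37 RPKM in the libraries labelled hPRM1, against 1514 to 1723 in the empty vector and 454 to 1560 in hPRM2. Markers of HEK293T cells were thus nearly absent from these 3 libraries, and the part of the other cell type markers in the differences below was not tested. Reads on genes, estimated from the spacing of low values, were 7930000 to 10790000 per empty vector library, 4210000 to 5860000 per library labelled hPRM1, and 1270000 to 2650000 per hPRM2 library.

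In the empty vector, 7 of the 8 genes were well expressed and HMGN4 was close to the limit of detection. HMGB1 was listed at 611.5, 787.2 and 391.4 RPKM in replicates 1, 2 and 3, a mean of 596.7 ± 198.3 (SD, n = 3). HMGN1 followed with 456.2 ± 24.4 RPKM and HMGN2 with 453.3 ± 49.2 (SD, n = 3 each), and the ranges of these 3 genes overlapped. HMGB2 was next with 209.99 ± 56.9 RPKM, below the whole range of HMGN2. HMGN3 had 146.5 ± 23.5 RPKM, HMGN5 113.7 ± 70.8 and HMGB3 39.7 ± 10.7 (SD, n = 3 each), and each of these neighbours in the order overlapped the next. HMGN4 had 2.20, 1.08 and 2.38 RPKM, about 17, 9 and 25 reads, and lay below every library of HMGB3. HMGN5 varied most among the expressed members, from 40.8 to 182.3 RPKM, with a coefficient of variation of 62.3%, against 5.34% for HMGN1. Division by gene length sets part of this order, since reads from 3′ ends do not grow with the length of a transcript.

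**Figure D1:**
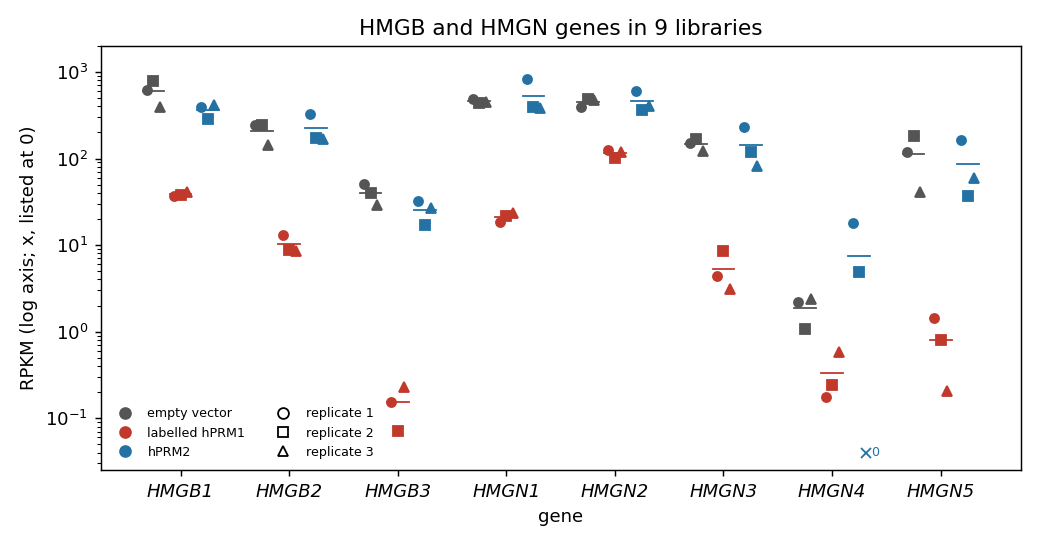
RPKM of each HMGB and HMGN gene in the 9 libraries on a log axis. Points are single libraries, with the shape giving the replicate, short lines are group means, and a cross marks the hPRM2 library in which HMGN4 was listed at 0. The libraries labelled hPRM1 lie below both other groups for every gene except HMGN4, where one hPRM2 library is at 0.

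All 8 genes were lower in the libraries labelled hPRM1 than in the empty vector, with no overlap between the groups for any of them. HMGB1 was listed at 37.3, 38.4 and 41.2 RPKM in these libraries (mean 38.97 ± 2.05, SD, n = 3), a fall of 3.85 on the log2(RPKM + 1) scale (95% interval -4.49 to -3.20, limma adjusted p = 2.59e-05). HMGB2 was at 13.1, 8.81 and 8.64 RPKM, against 241.6, 244.1 and 144.3 in the empty vector. The HMGB2 change was -4.22 (95% interval -4.91 to -3.53, limma adjusted p = 2.27e-05). HMGB3, the member most tied to embryonic and stem cells, was listed at 0.155, 0.0717 and 0.231 RPKM, which is about 3, 1 and 4 reads. In the empty vector it had 50.4, 39.8 and 29.02 RPKM, so the estimated reads, scaled to library totals, were 244 times higher there (95% counting interval 124 to 567, 3485 reads against 8). Its fitted change was -5.11 (limma adjusted p = 7.81e-06), which a pseudocount of 1 holds closer to 0.

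In the HMGN family the falls were less even. HMGN1 was at 18.3, 21.7 and 23.2 RPKM in the libraries labelled hPRM1, against 484.1, 439.1 and 445.4 in the empty vector, a change of -4.38 ± 0.166 (SE, limma adjusted p = 3.77e-06). HMGN3 was at 4.40, 8.58 and 3.08 RPKM, against 149.6, 168.3 and 121.6, a change of -4.62 ± 0.345 (SE, limma adjusted p = 3.26e-05). HMGN2 had the highest RPKM of the 8 genes there, with 124.7, 101.7 and 119.3 against 398.4, 493.2 and 468.3 in the empty vector. By estimated reads, which are not divided by length, HMGB1 was higher in these libraries (about 1145, 846 and 1129 against 688, 403 and 587). The HMGN2 change was -1.97 ± 0.165 (SE, limma adjusted p = 5.28e-05), less than in any other well expressed member. HMGN5, which binds euchromatin and has a long acidic tail, was at 1.42, 0.800 and 0.204 RPKM against 118.0, 182.3 and 40.8. The HMGN5 change was -5.80 ± 0.574 (SE, limma adjusted p = 0.000109), and its estimated reads were 24 in all against 5504. HMGN4, which arose from an HMGN2 transcript, was at 0.175, 0.244 and 0.589 RPKM, about 1, 1 and 3 reads, against 51 reads in the empty vector. Its change of -1.09 ± 0.256 (SE, limma adjusted p = 0.00656) ended below 2-fold without empty vector replicate 3, at -0.96.

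These 8 calls stood beside a general shift of the libraries. HBA2 had about 2.34e+06, 1.57e+06 and 2.21e+06 reads in the libraries labelled hPRM1, and HBB 2.64e+06, 1.69e+06 and 2.02e+06. Estimated reads on all genes there were 5860000, 4210000 and 5230000. Reads taken by a few genes lower the RPKM of all others, and the size of this part was not tested. Of 13588 genes tested, 62.5% were called lower (adjusted p of at most 0.05 and at least 2-fold) and 12.9% higher, the groups did not overlap for 80.8%, and the median change of all genes was -1.72. The median of the 8 members was -4.30. Low genes can fall little on this scale and enter the median of all genes. With a minimum of 10 RPKM, the median of 6983 genes was -2.43, and 4970 of them and 7 members were called lower. HMGB3 and HMGN4 passed the filter of 1 RPKM in 3 libraries only through the empty vector, and HMGN5 had a single library labelled hPRM1 above it, so the count of 8 is no support on its own. Relative to the median of -1.72, HMGN2 was at -0.25 and HMGN4 at 0.63, while the other 6 lay between -4.09 (HMGN5) and -2.13 (HMGB1). The HMGN2 change of -1.97 was a smaller fall than the median of -2.43. HMGN2 was at the 44.1 percentile of all tested genes, HMGB1 at the 11.1 percentile and HMGN5 at the 1.66 percentile. After median-of-ratios rescaling, which moved the median of all genes to 0.14, 25.1% of genes were called lower and 6 of the 8 members remained so. HMGB1 was then at -1.36, HMGB2 at -1.80, HMGB3 at -3.77, HMGN1 at -1.91, HMGN3 at -2.29 and HMGN5 at -4.02, with limma adjusted p from 4.89e-05 to 0.00376. HMGN2 turned to 0.53 (limma adjusted p = 0.0601) and HMGN4 to -0.02 (limma adjusted p = 0.962). Quantile normalization gave -0.12 for HMGN2 and 0.10 for HMGN4, neither of them called, and left the other 6 members called lower, as it did 32.3% of all genes. The direction for HMGN2 and HMGN4 thus rests on how the libraries are scaled. A per-gene test on RPKM with unequal variances, which borrows no spread from other genes, called 3 of the 8 lower (HMGN1, HMGN2 and HMGN3) and 27.4% of all genes.

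**Figure D2:**
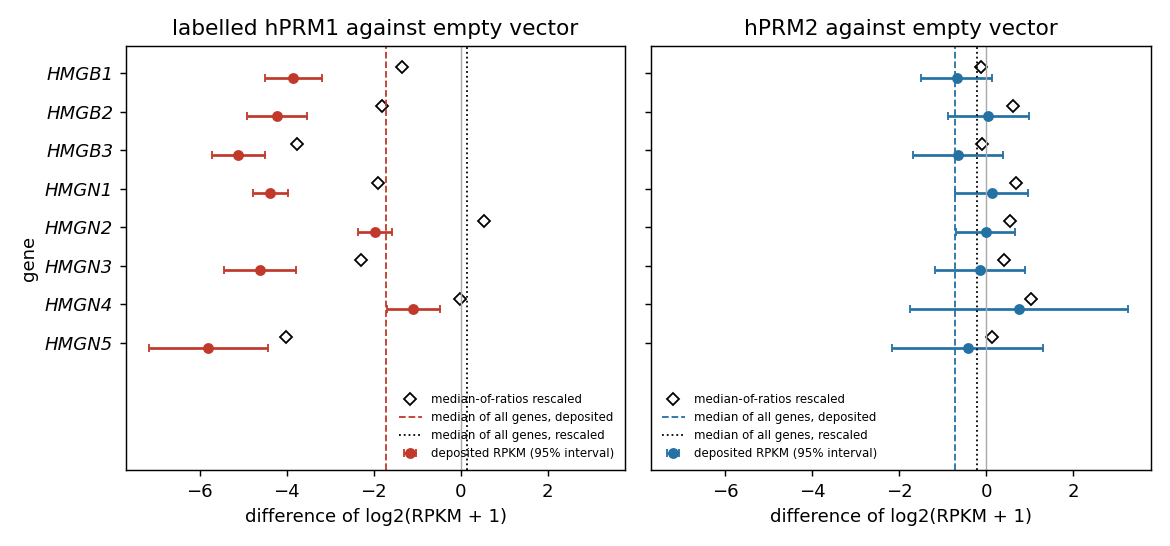
Differences of log2(RPKM + 1) from the empty vector for the libraries labelled hPRM1 (left) and hPRM2 (right). Filled points with bars are values and 95% intervals on deposited RPKM, diamonds are values after median-of-ratios rescaling, and dashed and dotted lines are the medians of all tested genes on these scales (-1.72 and 0.14 on the left). On the left HMGN2 lies below 0 on deposited RPKM and above it after rescaling, HMGN4 is then at -0.02, and the other 6 genes are called lower on both scales, and on the right every interval on deposited RPKM includes 0.

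Neither family changed detectably with hPRM2. None of the 8 members was called in either direction by limma, where 1.37% of 13126 genes were called lower and 1.36% higher, and none had an unadjusted p under 0.05, as 3351 genes did. The groups overlapped for all 8, against 35.9% of all genes without overlap. HMGB1 was at 389.7, 282.9 and 417.6 RPKM in hPRM2 replicates 1, 2 and 3, a change of -0.68 (95% interval -1.49 to 0.14, limma adjusted p = 0.260). HMGB3 had 32.7, 17.1 and 26.5 RPKM and a change of -0.64 (95% interval -1.67 to 0.40, limma adjusted p = 0.380). HMGB2 had 326.9, 172.7 and 169.8 RPKM, with a change of 0.06 (95% interval -0.87 to 0.98). For all 3 HMGB genes the interval includes 0, and for HMGB1 and HMGB3 it also includes a 2-fold fall.

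HMGN1 had 823.4, 391.5 and 384.0 RPKM in hPRM2, a change of 0.13 (95% interval -0.71 to 0.97). This was the highest mean RPKM of the 8 genes, with a range that overlapped HMGN2. By estimated reads, which are not divided by length, HMGB1 was higher than HMGN1 in each hPRM2 library (5411, 1886 and 3516 against 2475, 565 and 700). HMGN2 had 604.2, 368.3 and 407.0 RPKM and a change of -0.01 (95% interval -0.69 to 0.68). HMGN3 had 231.0, 120.3 and 81.97 RPKM and a change of -0.14 (95% interval -1.17 to 0.89). HMGN5 had 164.0, 36.4 and 60.0 RPKM and a change of -0.42 (95% interval -2.16 to 1.31). HMGN4 had 17.8, 4.83 and 0 RPKM, about 46, 6 and 0 reads, and its change of 0.76 (95% interval -1.74 to 3.26) rested on replicate 1, without which it was -0.22. Replicate 1 was the highest hPRM2 library for 7 of the 8 members, all except HMGB1. It also had 9652 genes above 0, against 14353 and 15633 in the other two hPRM2 libraries. Without it HMGB2, HMGN1 and HMGN2 were at -0.25, -0.23 and -0.22, and still none was called.

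The median change of the 8 members with hPRM2 was -0.07, and that of all tested genes was -0.72. Relative to that median HMGN1 stood at 0.85, HMGB2 at 0.78, HMGN2 at 0.71 and HMGN3 at 0.58, whereas HMGB1 was at 0.04 and HMGB3 at 0.08. After median-of-ratios rescaling the median of all genes was -0.20 and the members lay between -0.11 (HMGB1) and 1.04 (HMGN4), with none called by limma (0.442% of genes lower and 1.63% higher), where 2 had an unadjusted p under 0.05.

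A direct comparison of the protamine groups found 7 members lower under the hPRM1 label than under hPRM2. HMGN4 did not pass the filter there. HMGB3 passed it only through hPRM2, and HMGN5 had a single library labelled hPRM1 above it, so the count of 7 is no support on its own. Of 11756 genes tested, 37.0% were called lower and 16.0% higher, and the groups of all 7 members did not overlap, against 62.0% of all genes. The differences ran from -5.38 ± 0.642 for HMGN5 (SE, limma adjusted p = 0.000946) to -1.96 ± 0.276 for HMGN2 (SE, limma adjusted p = 0.00164). HMGB1 stood at -3.17, HMGB2 at -4.28, HMGB3 at -4.47, HMGN1 at -4.51 and HMGN3 at -4.48, beside a median of -0.97 over all genes. With a minimum of 10 RPKM the median of 5347 genes was -1.69. After median-of-ratios rescaling 18.5% of genes were called lower, and the 6 members other than HMGN2 still were, with HMGN2 at -0.02. With quantile normalization the share of all genes was 26.4%, and the same 6 members were called, with HMGN2 at -0.08. The per-gene test on RPKM called 0 of the 7 and 0.876% of all genes lower.

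Ratios of 2 genes within a library depend little on how libraries are scaled, except for genes near or below the added pseudocount of 1 RPKM, and 6 such ratios were compared. The log2 ratio of HMGN1 to HMGN2 was 0.28, -0.17 and -0.07 in the empty vector, near equality. In the libraries labelled hPRM1 it was -2.71, -2.17 and -2.32, a difference of -2.41 with no overlap. HMGN3 to HMGN2 differed by -2.65 and HMGN5 to HMGN2 by -3.84 between the same groups, again without overlap. HMGB3 to HMGB1 was -5.12 ± 0.0749 in the libraries labelled hPRM1 and -3.85 ± 0.369 in the empty vector (SD, n = 3 each), which differed by -1.27 without overlap. HMGB3 was below the pseudocount in all 3 libraries labelled hPRM1, which sets this value and its SD. Without a pseudocount, an alternative chosen after seeing the data, the ratio was -8.15 ± 0.818 against -3.89 ± 0.370 (SD, n = 3 each), a difference of -4.27 that rests on about 8 reads of HMGB3. On that scale HMGN1, HMGN3 and HMGN5 to HMGN2 differed by -2.47, -2.92 and -5.31, without overlap. HMGB2 to HMGB1 was -1.86 ± 0.368 against -1.48 ± 0.180 (SD, n = 3 each) and overlapped (two-sided exact permutation test, p = 0.2, adjusted 0.3). HMGN4 to HMGN2 differed by 0.87 without overlap, but HMGN4 was below the pseudocount in all 3 libraries labelled hPRM1, and without a pseudocount the difference was -0.63 and the groups overlapped. The number of ratios without overlap was thus 5 with a pseudocount of 1 and 4 with 0.1 or none. Each ratio without overlap had p = 0.1 (two-sided exact permutation test), the smallest that 3 libraries against 3 allow, and an adjusted p of 0.164 over 18 tests, so none passed the correction.

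Between hPRM2 and the empty vector, HMGB2 to HMGB1 was the 1 ratio without overlap. It was -0.25, -0.71 and -1.29 in hPRM2 replicates 1, 2 and 3, against -1.34, -1.68 and -1.43 in the empty vector, a difference of 0.73 (two-sided exact permutation test, p = 0.1, adjusted 0.164). The gap between the nearest libraries of the groups, -1.29 and -1.34, was small beside the spread within hPRM2. The HMGN1 to HMGN2 ratio of hPRM2 was 0.15 ± 0.270 (SD, n = 3), which overlapped the empty vector (two-sided exact permutation test, p = 0.6).

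Family sums were governed by these members. HMGB1 to HMGB3 together had 903, 1071 and 565 RPKM in the empty vector, 749, 473 and 614 in hPRM2, and 50.6, 47.2 and 50.1 in the libraries labelled hPRM1. The 5 HMGN genes together had 1152, 1284 and 1078 RPKM in the empty vector, 1840, 921 and 933 in hPRM2, and 149.0, 133.1 and 146.3 in the libraries labelled hPRM1. HMGN2 thus made up most of the HMGN sum where the other members had fallen. In the libraries labelled hPRM1 the RPKM order of the 5 highest genes was HMGN2, HMGB1, HMGN1, HMGB2 and HMGN3, without overlap between neighbours. HMGN5, HMGN4 and HMGB3 came last with overlapping ranges. Division by gene length sets part of this order. By estimated reads HMGB1 lay above HMGN2 in every one of these libraries (846 to 1145 against 403 to 688), and HMGN1 overlapped HMGB2 (104 to 137 against 60.8 to 126).

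HMGB1 has a transcribed processed pseudogene, HMGB1P5 (ENSG00000132967), on chromosome 3 from 22381819 to 22382929 on the plus strand. Its 642-base transcript aligned to the 648-base coding sequence of HMGB1 with 98.6% identity, and 81.7% of its 31-base words occur in HMGB1 transcripts. For its longer transcript of 985 bases these values were 98.0%, against an HMGB1 transcript, and 69.9%. Bases 150 to 239 of the coding sequence and of the 642-base transcript are shown. They are identical except at 1 base, in capitals, so a read from this stretch cannot be placed unless it covers that base.
HMGB1: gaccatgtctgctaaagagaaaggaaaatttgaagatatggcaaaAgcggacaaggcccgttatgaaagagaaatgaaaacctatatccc
HMGB1P5: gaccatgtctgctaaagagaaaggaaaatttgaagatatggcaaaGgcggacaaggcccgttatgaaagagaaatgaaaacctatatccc
HMGB1P5 was listed at 972.4, 1064 and 434.4 RPKM in the empty vector. The hPRM2 libraries had 384.7, 396.9 and 620.4 RPKM and those labelled hPRM1 had 44.1, 63.7 and 44.9. Its changes against the empty vector were -3.91 for the libraries labelled hPRM1 (limma adjusted p = 9.20e-05) and -0.75 for hPRM2 (limma adjusted p = 0.293), close to those of HMGB1. How reads that match both were shared, and how many 3′ end reads fell in the stretch shown, is not known here. The level of either gene is therefore uncertain. The sum of both genes changed by -3.89 and -0.72. Of 149 pseudogenes of the 8 members, 41 were above 0 in any library, and 5 had a mean of at least 10 RPKM. After HMGB1P5 the highest by mean were HMGN1P8 with 30.7 RPKM and HMGN1P38 with 18.9, the latter above 0 in a single library.

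**Figure D3:**
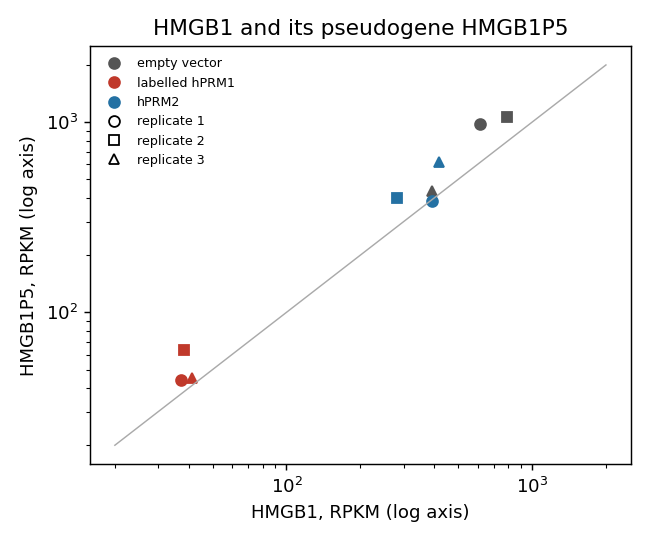
RPKM of HMGB1 and of its pseudogene HMGB1P5 in the 9 libraries, both on log axes, with colour for the group, shape for the replicate and a line of equal values. The libraries labelled hPRM1 sit near 37 to 41 RPKM of HMGB1 and the other 6 above 280, and the pseudogene is also lowest under that label. Within hPRM2 and within the hPRM1 label, the libraries do not keep the same order for gene and pseudogene.

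The other genes of this chromatin setting were read from a list of 24 holding further HMG-box and HMGA genes with the FACT histone chaperone, linker histones, the SET complex and receptors of HMGB1. In the libraries labelled hPRM1, 23 of them were tested, 19 were called lower and 4 higher, beside 62.5% and 12.9% of all genes, and their median was -2.86 beside -1.72. With a minimum of 10 RPKM, 18 were called lower and 2 higher, beside 4970 and 867 of 6983 genes, and the median of all genes was -2.43. HMGB4 was listed at 0 in all 9 libraries. All 13 tested HMG and FACT genes were called lower, and after median-of-ratios rescaling 6 were lower, 1 higher and 6 not called (8 lower and 5 not called with quantile normalization). SSRP1, a FACT subunit with an HMG box, was at 12.6, 15.4 and 14.97 RPKM against 224.8, 246.1 and 251.4 in the empty vector (change -3.98, limma adjusted p = 4.76e-06). HMGA1, an AT-hook protein of the HMG group, changed by -3.65 (limma adjusted p = 2.51e-05). HMGA2, its embryonic relative, was listed at 0 in all 3 libraries labelled hPRM1 and at 25.4 ± 3.24 RPKM (SD, n = 3) in the empty vector, at least 279-fold lower against the largest floor of 3 reads in a library. NME1, a nucleoside diphosphate kinase of the SET complex, was at 2.004, 2.41 and 0.832 RPKM against 272.3, 317.3 and 364.3, a change of -6.90 (limma adjusted p = 4.63e-06). The linker histone H1-10 changed by -2.75 (limma adjusted p = 1.55e-05), but by -0.27 after median-of-ratios rescaling (limma adjusted p = 0.174) and by -0.9995 with quantile normalization, neither of them a call.

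The 4 genes called higher in the libraries labelled hPRM1 were the HMGB1 receptors AGER, TLR2 and TLR4 and the exonuclease TREX1 of the SET complex. All 4 passed the filter only through these libraries, and HMGA2 passed it only through the empty vector. Their calls are therefore no support on their own. AGER was listed at 27.5, 26.5 and 27.4 RPKM there and at 0 in the empty vector, at least 92.3-fold higher against the largest floor of 3 reads in a library. TLR2 had 7.08, 11.4 and 9.22 RPKM (at least 96.5-fold higher) and TLR4 2.85, 4.55 and 2.61 (at least 111-fold higher), and both were at 0 in the other 6 libraries. TLR2 and TLR4 are carried by myeloid cells. The leukocyte markers were also higher in these libraries, at least 6148 RPKM in sum against at most 2.54, and a link was not tested. After median-of-ratios rescaling 8 of the 23 were called lower and 5 higher, beside 25.1% and 32.6% of all genes. With quantile normalization 12 were lower and 4 higher, beside 32.3% and 25.6% of all genes.

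With hPRM2, 19 of the 24 were tested and limma called 0, while 2 had an unadjusted p under 0.05. SSRP1 changed by -0.38 (95% interval -0.995 to 0.24) and HMGA1 by -0.48 (95% interval -1.22 to 0.27), and TLR2 and TLR4 were at 0. The linker histone H1-10 had the smallest adjusted p, with a change of -1.57 (limma adjusted p = 0.0643), and was named after its value was seen. Without hPRM2 replicate 1, 4 of the list were called lower, H1-10, HMG20B and APEX1 among them, and 1 higher, while the shares of all genes rose to 12.3% and 6.17%. Against hPRM2, 15 of 23 were lower in the libraries labelled hPRM1 and 4 higher, beside 37.0% and 16.0% of all genes. The 4 higher passed the filter there only through the libraries labelled hPRM1, and HMGA2 only through hPRM2. NME1 differed by -7.38 and TREX1 by 5.05. UBTF, PBRM1 and TOX4 were among those not called there.

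**Figure D4:**
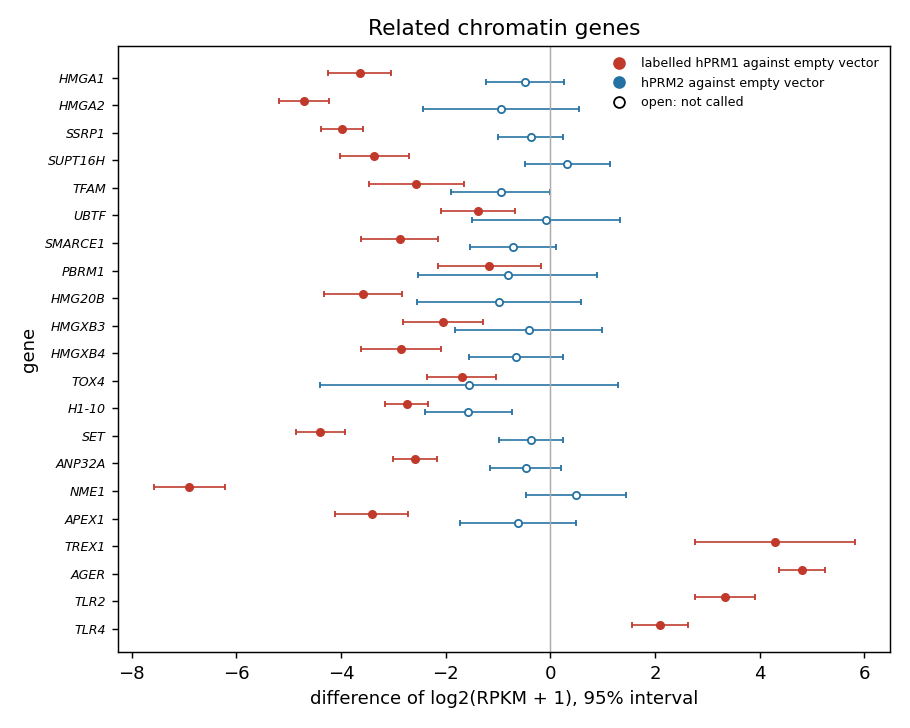
Differences of log2(RPKM + 1) from the empty vector, with 95% intervals, for 21 related genes, in the libraries labelled hPRM1 (red) and hPRM2 (blue). Filled points were called and open points were not; 17 red points lie below 0 and are filled, 4 lie above 0, and no blue point is filled.

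Upstream sequence of the members was searched for known words, and a link of these words to the changes was not tested. RefSeq promoters (GRCh38.p14) were found for 7 of the 8 genes, 10 promoters in all, and the 250 bases before each start were searched on both strands. HMGB2 had none, HMGB1 and HMGB3 had more than 1 each, and HMGN2 and HMGN4 are included. CCAAT, the NF-Y box, was present in 6 of the 10, against 32.0% of 35116 promoters. GGGCGG, the SP1 box, was present in 7 against 42.6%, CCGGAAG, the ETS box, in 4 against 8.52%, and TTTGAA, the cell cycle homology region, in 2 (HMGB1 and HMGB3) against 13.3%. The E2F word GGCGGGAA, the NRF1 word and TATAAA were found in 0 of 10. Promoters of the members with the smallest and largest change among the well expressed are shown, upstream of the GENCODE 29 gene, with CCAAT in capitals.
HMGN2, chr1:26472190-26472439, plus strand: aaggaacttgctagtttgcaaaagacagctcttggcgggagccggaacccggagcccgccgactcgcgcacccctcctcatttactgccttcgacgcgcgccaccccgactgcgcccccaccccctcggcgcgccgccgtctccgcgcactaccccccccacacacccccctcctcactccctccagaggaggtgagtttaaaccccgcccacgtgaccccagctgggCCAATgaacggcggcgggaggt
HMGN5, chrX:81201943-81202163, minus strand: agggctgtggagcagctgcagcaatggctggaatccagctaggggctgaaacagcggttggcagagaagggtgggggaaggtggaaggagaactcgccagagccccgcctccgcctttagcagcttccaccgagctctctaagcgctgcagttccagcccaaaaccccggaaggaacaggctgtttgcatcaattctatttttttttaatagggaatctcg
HMGN2 has 1 CCAAT here and HMGN5 none, and HMGN5 holds CCGGAAG. HMGB3, which fell with HMGN5, has 3 CCAAT words in 1 of its promoters.

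Genes with the pattern most like each member were ranked by Pearson r of log2(RPKM + 1) over the 9 libraries among 6967 genes. HMGB1 was most like CRNDE, KIF5B and CCDC34, HMGB2 like MRPL32, RPL23A and COX16, and HMGB3 like NAP1L1, AURKA and CRNDE. HMGN1 was most like PRDX6, CCT3 and STMN1, HMGN2 like NGRN, RBM15 and DPY30, HMGN3 like YRDC, WDR77 and CYB5R3, and HMGN5 like LLPH, SRSF1 and KIFBP, with r from 0.994 to 0.999 for these 21 places. The 3 libraries labelled hPRM1 stand apart for most genes and set these values, since 14.0% to 22.4% of the genes reached r of 0.95 with each of these 7 members. HMGN4 was most like LINC03031 (0.97), TM9SF4 (0.94) and EIF2B5 (0.92), and 1 gene reached 0.95 with it.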

How the data were processed

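RNA of 9 libraries labelled HEK293T was analysed in 3 groups of 3, set by the labels (empty vector, hPRM1, hPRM2). The authors deposited RPKM values for 57338 genes, without counts. According to their methods, reads were processed with nf-core/rnaseq (FastQC, Cutadapt, STAR and Salmon, versions not given in the sources used here), mitochondrial genes were removed, and each count was divided by the total reads of the library and by gene length in kilobases. The labels name hg38, and replicates were not pooled. Ensembl identifiers were matched to symbols for 98.6% of genes.

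Reads per library were estimated from the steps of low RPKM values of single-transcript genes, with GENCODE 29 lengths less 250 bases. Of these low values, 91.9% to 96.3% lay within 0.1 of a whole read. This did not hold for nearly all genes of the table, and count models were therefore not used. For genes at 0, the limit was set at 3 reads. Intervals of read ratios are exact 95% intervals and cover counting error only.

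Groups were compared on log2(RPKM + 1) with limma 3.58.1 in R 4.3.3 (lmFit, eBayes with trend and robust), on the 6 libraries of each comparison. Genes entered if 3 or more of these libraries had 1 RPKM or more, and p-values were adjusted over all of them (Benjamini-Hochberg). Genes were called at an adjusted p of 0.05 or less with a change of 2-fold or more. Fold changes on this scale understate those of low genes. The comparisons share libraries. Scripts were tested on simulated data. Within-library ratios were tested by exact permutation, two-sided. Other values came from Python 3.11.15, pandas 2.3.3, numpy 2.4.6, SciPy 1.17.1, Biopython 1.88 and matplotlib 3.10.9.

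The 8 members, the related list, the marker lists and the tests were chosen with earlier results of these data known. Named beside the members were the 3 related genes with the largest called change in each comparison, HMGA1, SSRP1, TLR2, TLR4, PRM1 and PRM2, the 3 genes most like each member (no pseudogenes of members, mitochondrial, Y-linked, HLA or immune receptor genes), and the 3 pseudogenes with the highest mean. A few genes are counted in the lists but are not reported here by name. Alternatives were pseudocounts of 0.1 and 5, no filter, a minimum of 10 RPKM, median-of-ratios rescaling, quantile normalization, no fold threshold, the replicate number as a block, each replicate left out in turn, 1 fit of the 9 libraries together, and a per-gene t-test with unequal variances on RPKM and on log2 values. The authors' methods name a t-test adjusted by FDR, but neither unequal variances nor log2 values. Summing HMGB1 and HMGB1P5, and ratios without a pseudocount, were added after seeing the data.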

Additional observations from a re-analysis of the deposited data

Results flagged for a closer look

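Levels of the 7 members tested directly differed between the libraries labelled hPRM1 and hPRM2 (limma). Of all genes, 37.0% were called lower under the hPRM1 label and 16.0% higher. PRM1 was listed at 0 in both groups, so these are differences between labels. HMGN4 was not tested, and HMGB3 passed the filter only through hPRM2. The differences on the log2(RPKM + 1) scale were -3.17 for HMGB1, -4.28 for HMGB2, -4.47 for HMGB3, -4.51 for HMGN1, -1.96 for HMGN2, -4.48 for HMGN3 and -5.38 for HMGN5. With median-of-ratios rescaling and with quantile normalization the difference was not called for HMGN2 (-0.02 and -0.08). Markers of erythroid cells, leukocytes and HEK293T cells and the series of library names moved with the same split, and their part was not tested. Groups of 3 libraries were too small for the test of single outlying libraries.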

How the results depend on the processing

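With the per-gene test on RPKM, 3 members were called lower in the libraries labelled hPRM1 than in the empty vector (against 8) and 0 than in hPRM2 (against 7). The shares of all genes called lower fell to 27.4% and 0.876%. No alternative called a member with hPRM2. HMGN2 turned to 0.53 under median-of-ratios rescaling and HMGN4 to 0.10 under quantile normalization in the libraries labelled hPRM1, and HMGN4 also lost its call with a pseudocount of 5 (-0.36) and in the fit of all 9 libraries (adjusted p = 0.309). Members whose hPRM2 change turned sign without a call were HMGN2 (0.56), HMGN3 (0.42) and HMGN5 (0.13) under median-of-ratios rescaling, HMGN1 (-0.0054) under quantile normalization and HMGN2 (0.021) in the per-gene test on RPKM.

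Leaving out 1 library each time gave ranges for hPRM2 of -0.25 to 0.22 for HMGB2, -0.23 to 0.32 for HMGN1, -0.22 to 0.14 for HMGN2, -0.54 to 0.20 for HMGN3, -0.22 to 1.89 for HMGN4 and -1.03 to 0.049 for HMGN5. The related list then had 0 to 4 genes lower and 0 to 1 higher with hPRM2, and 1 to 2 ratios did not overlap. Members called lower in the libraries labelled hPRM1 than in the empty vector numbered 7 to 8, beside 8148 to 8610 of 13588 genes.

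Against the empty vector, 8 (median-of-ratios), 12 (quantile) and 11 (per-gene test on RPKM) related genes were lower in the libraries labelled hPRM1. The main fit gave 19. Shares of all genes were 25.1%, 32.3% and 27.4%, and 62.5% in the main fit. For the hPRM2 comparison these counts were 6, 8 and 1, and 15 in the main fit. Shares of all genes there were 18.5%, 26.4% and 0.876%, and 37.0% in the main fit. The per-gene test on log2 values called 8 lower there, and 2388 of 11756 genes. Those higher numbered 2 with a minimum of 10 RPKM and 1 in the per-gene test on RPKM, in both comparisons, against 4. With that minimum 867 of 6983 genes were higher than in the empty vector and 922 of 5347 than in hPRM2. The per-gene test on RPKM called 791 of 13588 and 116 of 11756 higher. With hPRM2, the fit of all 9 libraries called 1 lower, beside 1618 of 13126 genes. All genes called with hPRM2 numbered 180 lower and 179 higher, 58 and 214 with median-of-ratios rescaling, and 1619 and 810 without hPRM2 replicate 1.

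Same-numbered libraries did not deviate together (correlations of -0.06 to 0.09). Deviations from means of 3 libraries cannot exclude pairing, and the main fit was unpaired. With the replicate block 8, 0 and 7 members were called, as without it. Of all genes, it called 8551 of 13588 lower under the hPRM1 label than in the empty vector, and 4019 of 11756 than in hPRM2. With hPRM2 it called 8 lower and 49 higher of all genes. The cause of these changes was not tested. The depth of hPRM2 limits HMGN4, where the 0 of replicate 3 allows up to 1.91 RPKM.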
